A study of Vitis vinifera with 45 samples.

Results

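The bHLH and WD40 partners of flavonoid MYBs in grapevine berry skin are described here across graft types and ripening stages: the bHLH genes MYC1 (VIT_07s0104g00090) and MYCA1 (VIT_15s0046g02560) and the WD40-repeat gene WDR1 (VIT_16s0098g00870). They are 3 of the 29958 transcripts in the deposited tables, chosen by identifier, and all 3 had reads in every library. The symbols were given with the identifiers and were matched to none of the 29591 entries of the reference gene table, which holds the same 3 symbols under other identifiers, each on the chromosome that the identifier names. No sequence is therefore shown for them.

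In flowering plants, R2R3-MYB factors switch on anthocyanin and proanthocyanidin genes together with a bHLH protein and a WD40-repeat protein, in what is called the MBW complex. The MYB confers most of the choice of target promoters, the bHLH binds both the MYB and DNA, and the WD40 protein holds the parts together. In grapevine, MYC1 and MYCA1 are the bHLH proteins known to act with flavonoid MYBs, and WDR1 is the relative of Arabidopsis TTG1. Red grape skins start to make anthocyanins at veraison, the onset of ripening.

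The libraries came from the skin of Vitis vinifera Crimson Seedless, a red seedless table grape, whose berries grew on 5 types of vine. CS/CS had been grafted onto its own kind, CS/101-14, CS/110R and CS/SO4 (the heterografts) carried the same scion on the rootstocks 101-14, 110R and SO4, and CS was graft-free on its own roots. Skins were taken at the stages DAF45, DAF75 and DAF105, named for the number of days since flowering, and each type had 3 biological replicates at each stage, in all 15 groups and 45 libraries. All groups share the scion cultivar and the days of sampling, so that graft type is the only treatment named. The rootstock of a library rests on its label alone. These stages are days and not matched states of ripening. At DAF45 the authors saw colour in the skins of the 3 heterografts, and at DAF75 veraison under way in every type but CS. Along the axis on which the authors' expression data separated the stages, CS/CS lay with CS and apart from the heterografts at DAF75. Graft and ripening state therefore go together in the differences between vines and in how these differences change between stages. Their parts were not tested. The vines stood at 1 site, and a sample pooled the skins of several berries.

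The total count of a library lay between 16387269 and 20765329 (median 18442527), and the members held from 216 to 3157 counts in a library. Levels are given as TPM, which is scaled to transcript length and to the library's total and so allows a comparison between genes. Fold changes are from estimated counts scaled by TMM, a trimmed mean of log ratios between libraries, and tested by edgeR's quasi-likelihood test with Benjamini-Hochberg adjustment over all transcripts tested, and a member is said to have changed where the adjusted p was 0.05 or less. Their standard error (SE) is the size of the log2 fold change over the square root of the F statistic. The 2 scales are not the same: on the log2(TPM + 1) scale the median of all transcripts was shifted, relative to the count scale, by -0.35 between DAF105 and DAF75 in CS, by 0.17 between DAF75 and DAF45 in CS and by -0.19 between CS/110R and CS at DAF75, so fold changes are read relative to the middle transcript. In skin, a smaller number of cells of a type and less RNA in each cell cannot be told apart.

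MYC1, a bHLH partner of both anthocyanin and proanthocyanidin MYBs in grapevine, had the highest mean TPM of the 3 genes in 14 of the 15 groups, with CS at DAF105 as the exception, at a median of 43.8 TPM over the 45 libraries and at a median percentile of 81.5 among the 20158 transcripts with at least 10 counts in 3 libraries. At DAF45, replicates 1 to 3 held 65.5, 45.8 and 55.0 TPM for CS/CS, 41.8, 35.3 and 42.4 for CS/101-14, 64.9, 53.7 and 47.1 for CS/110R, 50.5, 43.8 and 48.6 for CS/SO4, and 53.2, 54.8 and 51.8 for CS. At DAF75, they held 71.0, 64.1 and 73.3 TPM for CS/CS, 39.0, 39.7 and 40.9 for CS/101-14, 43.7, 51.6 and 48.1 for CS/110R, 43.0, 48.0 and 45.5 for CS/SO4, and 59.8, 54.1 and 56.0 for CS. At DAF105, they held 55.8, 36.6 and 34.2 TPM for CS/CS, 29.1, 28.8 and 20.9 for CS/101-14, 32.8, 24.4 and 28.2 for CS/110R, 26.3, 25.6 and 28.4 for CS/SO4, and 23.0, 20.2 and 21.7 for CS. All libraries of CS/CS at DAF75 were above every library of the other groups at that stage, and the libraries of CS and the heterografts at DAF105 were the lowest of the gene. Replicate 1 of CS/CS at DAF105 stood well above the other two of its group.

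The group means of MYC1 spanned 3.21-fold, with 69.5 ± 4.80 TPM in CS/CS at DAF75 as the highest and 21.6 ± 1.35 TPM in CS at DAF105 as the lowest (SD, n = 3 each). Ranked from high to low, the groups fell into 4 runs whose neighbours overlapped: CS/CS at DAF75 alone, then CS at DAF75, CS/CS and CS/110R at DAF45 and CS at DAF45. The next run held CS/110R at DAF75, CS/SO4 at DAF45 and DAF75, CS/CS at DAF105 and CS/101-14 at DAF75 and DAF45. The last run held CS/110R, CS/SO4, CS/101-14 and CS at DAF105. Of the 14 pairs of neighbouring groups in this order, 11 overlapped in their libraries and were not separated by their spread.

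MYCA1, the other bHLH of the flavonoid pathway in grapevine, had a lower median of 10.2 TPM and a median percentile of 50.5, and its group means had the widest fold range of the 3 genes. At DAF45, replicates 1 to 3 held 11.6, 9.27 and 10.2 TPM for CS/CS, 15.5, 9.94 and 10.2 for CS/101-14, 23.2, 21.5 and 24.9 for CS/110R, 19.1, 10.2 and 14.7 for CS/SO4, and 15.1, 19.4 and 17.0 for CS. At DAF75, they held 16.4, 12.7 and 28.6 TPM for CS/CS, 11.4, 10.5 and 11.4 for CS/101-14, 7.79, 9.83 and 9.79 for CS/110R, 16.2, 13.3 and 13.5 for CS/SO4, and 43.1, 46.6 and 46.2 for CS. At DAF105, they held 5.70, 5.59 and 3.98 TPM for CS/CS, 6.17, 5.60 and 6.13 for CS/101-14, 6.58, 7.18 and 6.35 for CS/110R, 6.39, 7.05 and 6.57 for CS/SO4, and 6.58, 7.06 and 5.06 for CS. The graft-free libraries of DAF75 stood apart from all others, and no library of DAF105 reached the lowest of the earlier stages. In CS/CS at DAF75, replicate 3 was high beside the other two, which gives that group the largest coefficient of variation of the gene, 43.3%.

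The highest group mean of MYCA1, 45.3 ± 1.95 TPM in CS at DAF75, was 8.90-fold the lowest, 5.09 ± 0.964 TPM in CS/CS at DAF105 (SD, n = 3 each). The order had only 2 breaks. CS at DAF75 was alone at the top, all other groups of DAF45 and DAF75 formed 1 run of overlapping neighbours that began with CS/110R at DAF45 (23.2 ± 1.67 TPM) and ended with CS/110R at DAF75 (9.14 ± 1.16 TPM), and the 5 groups of DAF105 formed the last run, between 6.70 and 5.09 TPM.

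WDR1, the WD40-repeat member, varied least, with a median of 26.8 TPM and a median percentile of 73.0. At DAF45, replicates 1 to 3 held 30.8, 28.5 and 30.3 TPM for CS/CS, 33.5, 25.9 and 30.9 for CS/101-14, 32.4, 31.1 and 25.7 for CS/110R, 33.7, 40.8 and 39.2 for CS/SO4, and 30.3, 22.7 and 36.1 for CS. At DAF75, they held 32.0, 25.2 and 23.8 TPM for CS/CS, 26.1, 26.8 and 29.5 for CS/101-14, 26.3, 27.7 and 28.2 for CS/110R, 24.3, 23.1 and 29.0 for CS/SO4, and 22.3, 21.7 and 22.2 for CS. At DAF105, they held 39.1, 38.2 and 32.0 TPM for CS/CS, 27.0, 26.0 and 21.2 for CS/101-14, 25.6, 29.2 and 19.7 for CS/110R, 24.2, 18.2 and 18.6 for CS/SO4, and 21.1, 22.5 and 23.1 for CS. The CS/CS libraries were the highest at DAF105, and the CS libraries the lowest at DAF75.

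The group means of WDR1 spanned 1.87-fold, between 37.9 ± 3.73 TPM in CS/SO4 at DAF45 and 20.3 ± 3.34 TPM in CS/SO4 at DAF105 (SD, n = 3 each). In the order of levels, CS/SO4 at DAF45 was followed by CS/CS at DAF105, the other 4 groups of DAF45, then CS/101-14, CS/110R, CS/CS and CS/SO4 at DAF75, CS/110R and CS/101-14 at DAF105, CS at DAF105 and DAF75 and CS/SO4 at DAF105. No pair of neighbours was separated: all 14 pairs overlapped in their libraries. The counts behind these levels were 435 to 1025 in a library, against 1011 to 3157 for MYC1 and 216 to 2384 for MYCA1.

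**Figure D1:**
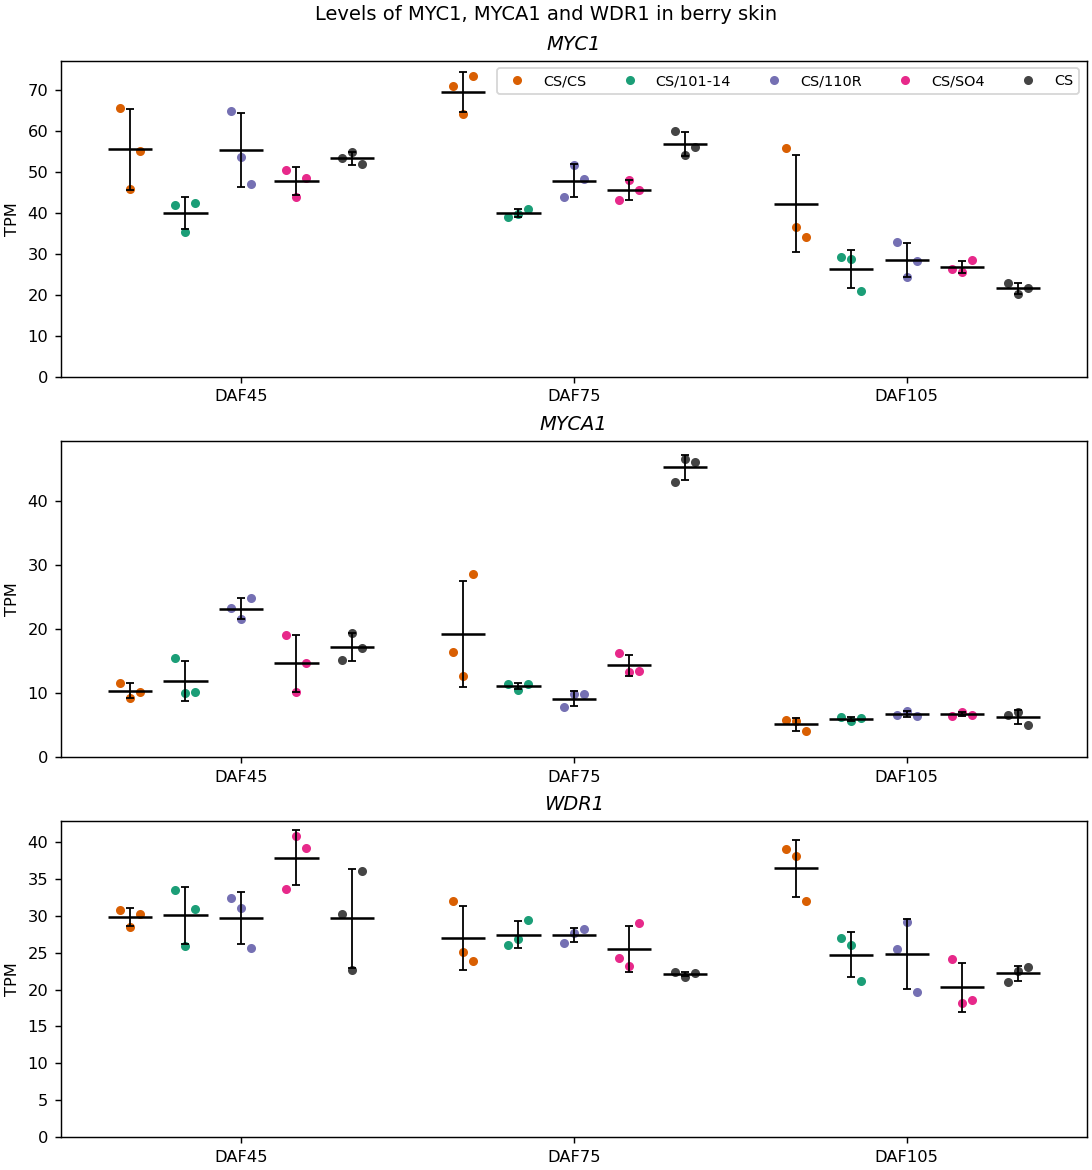
TPM (y axis, linear and starting at 0) of MYC1, MYCA1 and WDR1 in each of the 45 libraries (points), by stage (DAF45, DAF75 and DAF105) and graft type (colours), with the mean (line) and SD (bar) of the 3 replicates. MYCA1 in CS at DAF75 (43.1 to 46.6 TPM) lies above every other library of the gene, and MYC1 is lowest at DAF105 outside CS/CS.

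The balance of the 2 bHLH transcripts differed between groups, and the ratio of their TPM within a library is free of the scaling between libraries. MYC1 exceeded MYCA1 in every library. At DAF75 the ratio of MYC1 to MYCA1 was 4.34, 5.04 and 2.56 for CS/CS, 3.43, 3.79 and 3.57 for CS/101-14, 5.61, 5.25 and 4.92 for CS/110R, 2.66, 3.61 and 3.38 for CS/SO4, and 1.39, 1.16 and 1.21 for CS. Every grafted library lay above every graft-free one, and the graft-free mean of 1.25 ± 0.120 (SD, n = 3) was the lowest of all groups. At DAF45 the means were 5.33 in CS/CS, 3.47 in CS/101-14, 2.39 in CS/110R, 3.42 in CS/SO4 and 3.13 in CS. The highest ratios were those of CS/CS at DAF105, 9.78, 6.55 and 8.59, against means of 4.43 in CS/101-14, 4.28 in CS/110R, 4.02 in CS/SO4 and 3.55 in CS. Those 3 libraries lay above all others of that stage.

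As a share of the summed TPM of both bHLH genes, MYCA1 made up 21.1 ± 6.12% for CS/CS, 21.8 ± 0.840% for CS/101-14, 16.0 ± 0.886% for CS/110R and 24.0 ± 2.98% for CS/SO4 at DAF75, against 44.5 ± 2.32% for CS (SD, n = 3 each). The sum of the 2 was 51.0 ± 1.16 TPM in CS/101-14, 57.0 ± 5.03 TPM in CS/110R and 59.8 ± 1.26 TPM in CS/SO4, against 88.7 ± 12.6 TPM in CS/CS and 101.9 ± 1.10 TPM in CS. Every heterografted library of DAF75 had a lower sum than every library of CS and CS/CS at that stage. At DAF105 the share was 11.0 ± 2.04% in CS/CS, and the other groups lay between 18.8% and 22.4%. The ratio of MYCA1 to WDR1 was above 1 in CS at DAF75 (2.05 ± 0.112, SD, n = 3) and in 1 further library, replicate 3 of CS/CS at that stage (1.20).

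**Figure D2:**
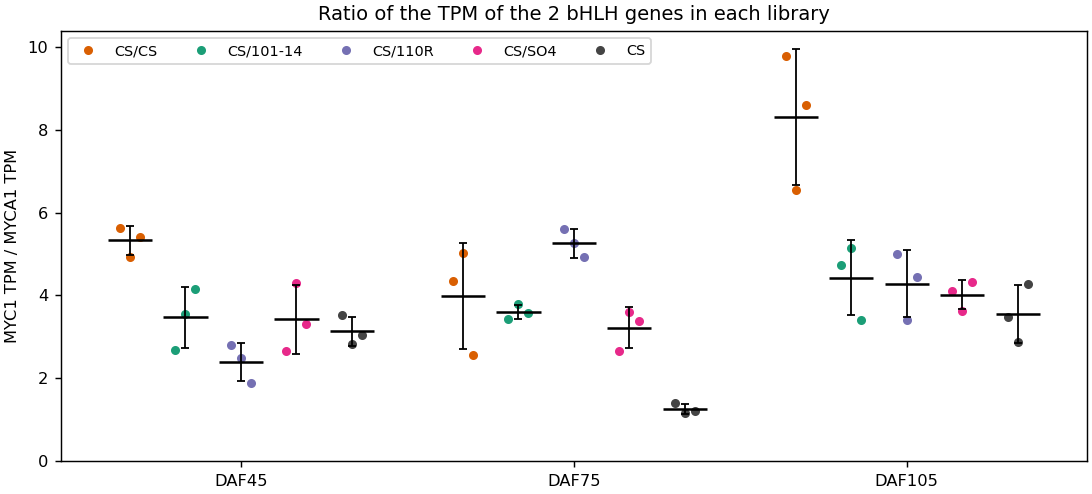
Ratio of MYC1 TPM to MYCA1 TPM (y axis, starting at 0) in each library (points) by stage and graft type, with the mean (line) and SD (bar) of 3 replicates. CS at DAF75 lies lowest, at 1.16 to 1.39, and CS/CS at DAF105 highest, at 6.55 to 9.78.

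Each grafted type was compared with graft-free CS of the same day, which need not be the same state of ripening. Here and in the later comparisons between vines, a rise or fall is a level above or below the other group, not a change over time. The 4 comparisons of a stage share the same CS libraries, so they are not independent of each other. At DAF45, 1 of the 12 tests passed: MYCA1 fell by 0.90 in CS/CS on the log2 scale (SE 0.13, adjusted p = 0.00297, 3 libraries a group), with all CS/CS libraries below all CS libraries. In CS/CS 38.9% of all transcripts tested changed at this stage, against 0.161% for CS/101-14, 24.9% for CS/110R and 16.7% for CS/SO4, and 1 of 3 members changed in CS/CS and 0 of 3 in each heterograft. At an unadjusted p under 0.05, 2 members passed for CS/101-14 and 0 for CS/110R and CS/SO4, where DESeq2 also called 0. In CS/101-14 the values were -0.43 ± 0.097 (SE) for MYC1, with no overlap of libraries, and -0.56 ± 0.18 for MYCA1, with adjusted p = 0.121 and 0.204 at edgeR's test. DESeq2 gave an adjusted p of 0.00967 for this MYC1 difference. In CS/110R the MYCA1 libraries lay above those of CS, at a log2 fold change of 0.25 ± 0.14 (adjusted p = 0.232), which on the log2(TPM + 1) scale was 0.42 (adjusted p = 0.0493, limma).

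At DAF75, 9 of 12 tests passed, beside 41.0% of all transcripts changed for CS/CS, 64.3% for CS/101-14, 60.5% for CS/110R and 56.5% for CS/SO4. MYCA1 was lower than in CS in all 4 grafted types. Its log2 fold change was -1.25 ± 0.26 for CS/CS (adjusted p = 0.00996), -1.86 ± 0.073 for CS/101-14 (1.48e-06), -2.07 ± 0.083 for CS/110R (3.7e-06) and -1.50 ± 0.11 for CS/SO4 (4.55e-05), and no grafted library reached the lowest of CS. In mean TPM, it stood at 0.425 of the CS level in CS/CS, 0.245 for CS/101-14, 0.202 for CS/110R and 0.316 for CS/SO4.

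WDR1 moved the other way at DAF75. It rose in CS/101-14 by 0.47 ± 0.078 (adjusted p = 0.00099), in CS/110R by 0.55 ± 0.066 (0.000238) and in CS/SO4 by 0.36 ± 0.090 (0.0106) on the log2 scale, and in CS/CS its value was 0.28 ± 0.13 (0.115). All grafted libraries lay above all CS libraries, which spanned only 21.7 to 22.3 TPM. On the log2(TPM + 1) scale the rises were 0.30 for CS/101-14, 0.30 for CS/110R and 0.19 for CS/SO4, and the last no longer passed (adjusted p = 0.146, limma). Without replicate 3 of CS/CS, the CS/CS difference passed (0.39, adjusted p = 0.0198).

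MYC1 differed in both directions at DAF75. It rose by 0.29 ± 0.078 in CS/CS (adjusted p = 0.0239) and fell by 0.34 ± 0.064 in CS/101-14 (0.00201), each with no overlap of libraries with CS. The rise in CS/CS lost its call without CS/CS replicate 1 (adjusted p = 0.0557) and without CS replicate 1, 2 or 3 (0.0518, 0.0828 and 0.0926), with the replicate block (0.0658) and in 1 fit of all 45 libraries (0.0840). For CS/SO4 the value was -0.15 ± 0.072 (adjusted p = 0.108), and -0.31 on the log2(TPM + 1) scale (adjusted p = 0.0118, limma). In CS/110R it was near 0 on the count scale (adjusted p = 0.984), although its libraries lay below those of CS in TPM, where the log2 difference was -0.24 (adjusted p = 0.0358, limma).

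At DAF105, 2 of 12 tests passed, both in CS/CS. MYC1 rose by 0.87 ± 0.19 (adjusted p = 0.0109) and WDR1 by 0.62 ± 0.10 (0.00406) in CS/CS on the log2 scale, with every CS/CS library above every CS library. MYCA1 had a value of -0.39 ± 0.18 there (0.135). In CS/CS 37.3% of all transcripts changed, against 5.08% for CS/101-14, 16.2% for CS/110R and 13.0% for CS/SO4, and in each heterograft 0 of 3 members changed by edgeR or DESeq2. At an unadjusted p under 0.05, 1 member passed, MYC1 in CS/SO4. MYC1 was 0.21 ± 0.16 for CS/101-14, 0.27 ± 0.12 for CS/110R and 0.28 ± 0.091 for CS/SO4, with adjusted p between 0.0853 and 0.469. The rise of MYC1 in CS/CS was 0.80 without CS replicate 2, with adjusted p = 0.0501, and the CS/SO4 value passed without CS replicate 1 (0.34, 0.0376).

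**Figure D3:**
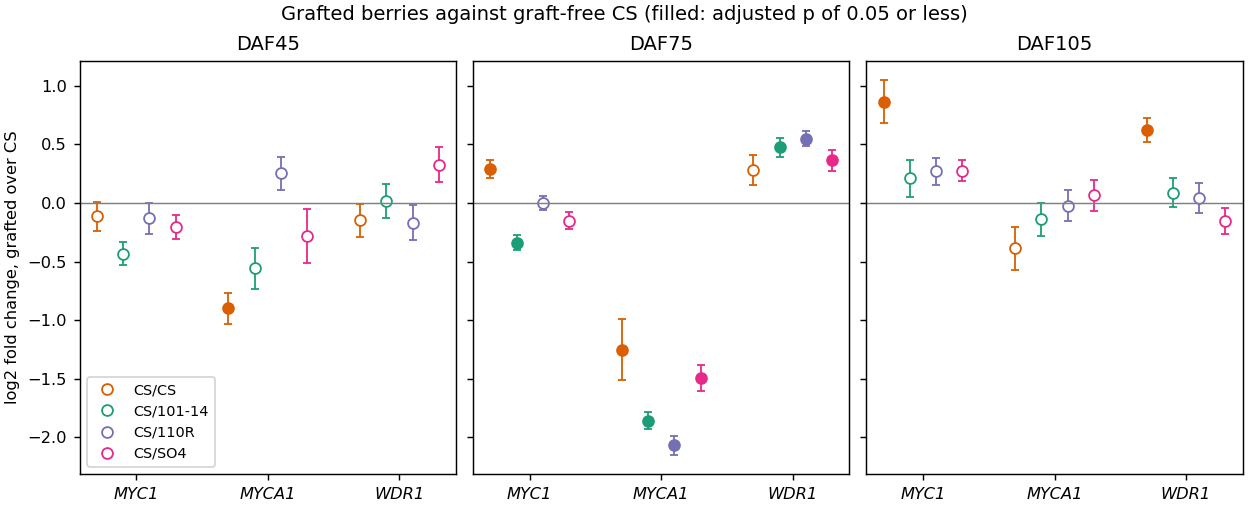
log2 fold change of each grafted type over CS (y axis) at DAF45, DAF75 and DAF105 for MYC1, MYCA1 and WDR1, with the SE of the estimate (bars) and filled points where the adjusted p was 0.05 or less. At DAF75 all 4 points of MYCA1 lie between -1.25 and -2.07, while those of WDR1 lie between 0.28 and 0.55.

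The course through ripening was tested within each graft type. Between DAF75 and DAF45, 5 of 15 tests passed, and MYCA1 went in opposite directions in different vines. It rose by 1.20 ± 0.13 in CS (adjusted p = 0.000667) and by 0.89 ± 0.26 in CS/CS (0.0493), and fell by 1.15 ± 0.10 in CS/110R (6.56e-05). In CS/101-14 and CS/SO4 its mean TPM was 11.1 at DAF75 against 11.9 at DAF45, and 14.3 against 14.6, with overlapping libraries and adjusted p = 0.612 and 0.976. The rise in CS/CS was 0.53 (adjusted p = 0.0324) without replicate 3 of DAF75 and did not pass without replicate 1 of DAF75 (0.0871) or without replicate 1, 2 or 3 of DAF45 (0.0903, 0.116 and 0.148). It also did not pass with the replicate block (0.0844) on the log2(TPM + 1) scale (0.102) or with a minimum mean of 1 TPM (0.0520).

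WDR1 fell in the same interval in CS/SO4 by 0.55 ± 0.12 (adjusted p = 0.00454) and in CS by 0.61 ± 0.13 (0.0105), of which the second was -0.39 on the log2(TPM + 1) scale (adjusted p = 0.0987). MYC1 passed in no graft type, and its largest value was 0.34 ± 0.13 in CS/CS (adjusted p = 0.0943). The number of members called was 1 of 3 in CS/CS, where 24.6% of all transcripts changed, 0 of 3 in CS/101-14 (58.9%; 0 also by DESeq2 and at an unadjusted p under 0.05), 1 of 3 in CS/110R (61.1%), 1 of 3 in CS/SO4 (61.4%) and 2 of 3 in CS (39.8%).

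Between DAF105 and DAF75, 10 of 15 tests passed, and every call of the 2 bHLH genes was a fall. MYCA1 fell in all 5 graft types, by 1.58 ± 0.30 in CS/CS (adjusted p = 0.00469), 0.71 ± 0.087 in CS/101-14 (0.00189), 0.37 ± 0.094 in CS/110R (0.0112), 0.88 ± 0.12 in CS/SO4 (0.000601) and 2.42 ± 0.13 in CS (3.06e-06), with no overlap of libraries in any. The smallest of these falls, in CS/110R, did not pass in 1 fit of all 45 libraries (adjusted p = 0.104). MYC1 fell by 0.67 ± 0.11 in CS/110R (0.00132), 0.53 ± 0.083 in CS/SO4 (0.00116) and 0.95 ± 0.084 in CS (3.19e-05). Its values in CS/CS, -0.40 ± 0.19 (0.121), and in CS/101-14, -0.41 ± 0.15 (0.0701), did not pass, although no library of DAF105 reached the lowest of DAF75 in either. They passed on the log2(TPM + 1) scale (-0.74, adjusted p = 0.0169, and -0.60, 0.0146), without replicate 1 of CS/CS at DAF105 (-0.63, 0.00533) and without replicate 3 of CS/101-14 at DAF105 (-0.24, 0.0424).

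WDR1 rose over this interval by 0.75 ± 0.14 in CS/CS (adjusted p = 0.00534) and by 0.43 ± 0.074 in CS (0.00114). Neither passed on the log2(TPM + 1) scale (0.43, adjusted p = 0.0507, and 0.01, 0.943), and in CS its TPM libraries of the 2 stages overlapped. In the heterografts its libraries overlapped too, at adjusted p between 0.54 and 0.85. Members called numbered 2 of 3 in CS/CS beside 49.3% of all transcripts, 1 of 3 in CS/101-14 (31.8%), 2 of 3 in CS/110R (53.8%), 2 of 3 in CS/SO4 (49.9%) and 3 of 3 in CS (68.0%).

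Over the whole course, DAF105 against DAF45, 10 of 15 tests passed. MYCA1 fell by 0.70 ± 0.16 in CS/CS (adjusted p = 0.00979), 0.82 ± 0.16 in CS/101-14 (0.00567), 1.55 ± 0.10 in CS/110R (7.98e-06), 0.87 ± 0.21 in CS/SO4 (0.00527) and 1.18 ± 0.16 in CS (0.000561). MYC1 fell by 0.71 ± 0.15 in CS/110R (0.0033), 0.57 ± 0.096 in CS/SO4 (0.00078) and 1.02 ± 0.10 in CS (0.000102), and was -0.43 ± 0.17 in CS/101-14 (0.0663), with no overlap of libraries. The CS/101-14 value passed on the log2(TPM + 1) scale (-0.59, adjusted p = 0.0212) and in 1 fit of all 45 libraries (-0.43, 0.00895). In CS/CS the MYC1 libraries of the 2 stages overlapped (adjusted p = 0.802). WDR1 rose by 0.61 ± 0.11 in CS/CS (0.00345) and fell by 0.64 ± 0.13 in CS/SO4 (0.00186), and the rise in CS/CS was 0.28 on the log2(TPM + 1) scale (adjusted p = 0.0815). In CS it was -0.13 ± 0.13 (0.407), and it passed without replicate 2 of DAF45 (-0.32, 0.0242). Members called were 2 of 3 in CS/CS (54.5% of all transcripts), 1 of 3 in CS/101-14 (56.7%), 2 of 3 in CS/110R (67.7%), 3 of 3 in CS/SO4 (69.7%) and 2 of 3 in CS (68.3%).

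**Figure D4:**
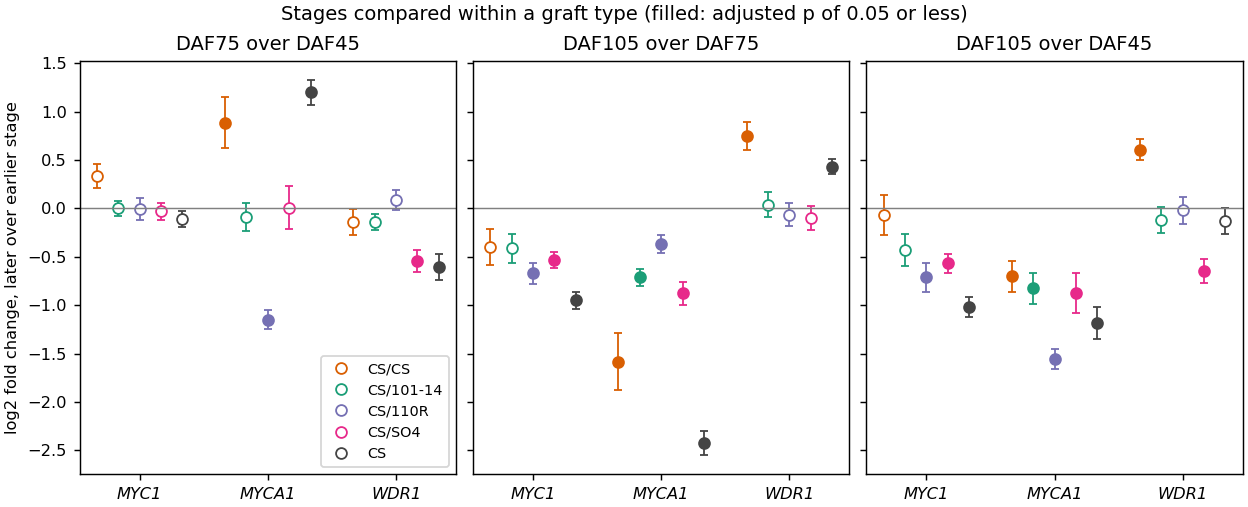
log2 fold change of the later over the earlier stage (y axis) within each graft type for MYC1, MYCA1 and WDR1, with the SE (bars) and filled points where the adjusted p was 0.05 or less. Between DAF75 and DAF45, MYCA1 is at 1.20 in CS and at -1.15 in CS/110R, and between DAF105 and DAF75 all 5 of its points lie below 0.

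The heterografts were also set against CS and CS/CS together, 9 libraries against 6 at each stage. Each side had a single mean in the fit, so libraries of different vines counted as replicates of a single condition. CS and CS/CS were not alike at DAF75, where MYCA1 averaged 45.3 and 19.2 TPM. WDR1 averaged 22.1 TPM in CS, 27.0 in CS/CS and 26.8 in the heterografts at that stage. At DAF105 MYC1 averaged 21.6 TPM in CS and 42.2 in CS/CS. At DAF75 all 3 members changed, beside 64.7% of all transcripts. MYC1 held 39.0 to 51.6 TPM in the heterografts (median 43.7) against 54.1 to 73.3 TPM in CS and CS/CS (median 62.0), with no overlap, and fell by 0.32 ± 0.086 (adjusted p = 0.00409). This fall was 0.49 on the log2(TPM + 1) scale. MYCA1 held 7.79 to 16.2 TPM (median 11.4) against 12.7 to 46.6 TPM (median 35.8), and fell by 1.30 ± 0.25 (0.000274), with 1 library of CS/CS inside the heterografted range. WDR1 held 23.1 to 29.5 TPM (median 26.8) against 21.7 to 32.0 TPM (median 23.1), and rose by 0.31 ± 0.087 (0.00588), which was 0.13 on the log2(TPM + 1) scale (adjusted p = 0.192). By edgeR and by DESeq2, 0 of 3 members changed at DAF45 (11.3% of all transcripts), with 0 at an unadjusted p under 0.05, and 0 of 3 at DAF105 (23.1%), with 1 at that p, which was WDR1 at -0.35 ± 0.14 (0.083). The WDR1 difference of DAF105 passed without CS replicate 1 (-0.42, adjusted p = 0.0419), without CS replicate 2 (-0.42, 0.0439) and in 1 fit of all 45 libraries (0.00234).

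CS/CS was also set against the 9 heterografted libraries of each stage, the scion on its own kind against the scion on other rootstocks. By the authors' account, these vines were not alike in ripening at DAF45 and DAF75. Rootstock and ripening state therefore go together in this comparison too, and their parts were not tested. Here too the fit gave the heterografts a single mean, as if their libraries were replicates of a single condition. MYC1 was higher in CS/CS at DAF75 by 0.47 ± 0.090 (adjusted p = 0.000434) and at DAF105 by 0.62 ± 0.15 (0.00393), both without overlap of libraries. The second value was 0.38 (adjusted p = 0.0479) without CS/CS replicate 1. WDR1 was higher in CS/CS at DAF105 by 0.63 ± 0.13 (0.00151), at 32.0 to 39.1 TPM against 18.2 to 29.2 TPM. At DAF75 WDR1 was -0.16 ± 0.098 (0.155), and it passed without CS/CS replicate 1 (-0.26, 0.0483).

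MYCA1 gave calls at all 3 stages of this comparison, and its direction differed between them. It fell in CS/CS by 0.78 ± 0.27 at DAF45 (adjusted p = 0.0381), rose by 0.55 ± 0.20 at DAF75 (0.0273) and fell by 0.36 ± 0.11 at DAF105 (0.0182). At every stage at least 1 library of CS/CS lay inside the heterografted range. The heterografts were not alike at DAF45, where MYCA1 averaged 23.2 TPM in CS/110R, 14.6 in CS/SO4 and 11.9 in CS/101-14, against 10.4 in CS/CS. The value of DAF75 was 0.21 (adjusted p = 0.327) without replicate 3 of CS/CS, and that of DAF105 was -0.19 (0.158) without the same number of DAF105 and did not pass in 1 fit of all 45 libraries (0.0840). The call of DAF45 was lost on leaving out any of 6 libraries, which were CS/CS replicates 1, 2 and 3 (adjusted p = 0.0843, 0.111 and 0.137), CS/110R replicates 1 and 2 (0.0540 and 0.0545) and CS/SO4 replicate 1 (0.0585), and on the log2(TPM + 1) scale (0.143). The members called were 1 of 3 at DAF45 beside 36.2% of all transcripts, 2 of 3 at DAF75 (68.2%) and 3 of 3 at DAF105 (48.6%).

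Whether the difference from CS itself changed between stages was tested by an interaction term in the fit of 12 libraries of a grafted type and CS. For DAF75 against DAF45, 5 of 12 tests passed: MYCA1 in the 3 heterografts, and WDR1 in CS/101-14 and CS/110R. Members called were 0 of 3 in CS/CS (22.5% of all transcripts), 2 of 3 in CS/101-14 (39.3%), 2 of 3 in CS/110R (47.5%) and 1 of 3 in CS/SO4 (37.3%). For DAF105 against DAF75, 7 of 12 passed: MYCA1 again in the 3 heterografts, MYC1 in CS/101-14 and CS/SO4, and WDR1 in CS/110R and CS/SO4. Members called were 0 of 3 in CS/CS (26.2% of all transcripts), 2 of 3 in CS/101-14 (48.1%), 2 of 3 in CS/110R (43.5%) and 3 of 3 in CS/SO4 (43.6%). For MYCA1 in the heterografts the term lay between -1.20 and -2.31 in the first interval and between 1.58 and 2.07 in the second. For CS/CS, 2 members had an unadjusted p under 0.05 in each interval, and DESeq2 called 1 in the first (MYC1, adjusted p = 0.0361) and 0 in the second. In CS/CS the MYCA1 term of the second interval was 0.85 ± 0.34 (adjusted p = 0.0837), and 1.22 (0.00289) without replicate 3 of CS/CS at DAF75. Without that library its term of the first interval passed too (-0.71, 0.0170). With all libraries kept, the MYCA1 term of the second interval was 1.02 on the log2(TPM + 1) scale (adjusted p = 0.0487, limma). It was 0.89 in 1 fit of all 45 libraries (0.0134), where the MYC1 term of that interval also passed (0.60, 0.0221). The MYC1 terms of CS/CS passed without replicate 1 of DAF45 (0.53, 0.0194) and without replicate 3 of DAF105 (0.67, 0.0342), and its WDR1 term of the first interval without replicate 2 of CS at DAF45 (0.58, 0.0371). In the second interval, the WDR1 term of CS/101-14 passed without its replicate 1 or 2 of DAF105 (-0.47, 0.0265, and -0.44, 0.0463), and the MYC1 term of CS/110R, 0.30 ± 0.14 (0.115), without its replicate 2 of DAF105 (0.41, 0.0118). On the log2(TPM + 1) scale that MYC1 term was 0.62 (adjusted p = 0.00483, limma).

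Beside the members, 8 loci were counted that the study's primer table lists under names of phenylpropanoid and flavonoid enzymes: LDOX (VIT_18s0001g03430), CHI (VIT_05s0094g00350), F3H (VIT_18s0001g14310), 4CLL5 (VIT_16s0050g00390), 4CL1 (VIT_11s0052g01090), CHS (VIT_16s0100g00950), PAL1 (VIT_16s0039g01320) and 4CLL2 (VIT_18s0001g00290). These names are not settled. RefSeq's grapevine gene table (ASM3070453v1) places its genes CHI, F3H and LDOX on other chromosomes than these 3 identifiers do, and it does not hold the other 5 symbols. The values below therefore belong to the listed loci, and no enzyme activity is assigned to them. At DAF75, 4 of the 7 loci tested rose and 1 fell against CS in each heterograft, and in CS/CS 1 rose and 3 fell. Of all transcripts tested, 64.3% changed for CS/101-14, 60.5% for CS/110R, 56.5% for CS/SO4 and 41.0% for CS/CS. Whether the counts of loci exceed these shares was not tested. PAL1 had too few counts to be tested. In CS/110R, the locus listed as LDOX rose by 2.71 ± 0.28 on the log2 scale and that listed as F3H by 1.86 ± 0.090, while that listed as 4CLL2 fell by 1.76 ± 0.085. The median log2 fold change of the 7 loci was -0.63 for CS/CS, 1.77 for CS/101-14, 1.86 for CS/110R and 1.29 for CS/SO4, beside medians of -0.00071, 0.0070, -0.0079 and 0.00056 over all transcripts tested. The locus listed as BHLH77 (VIT_17s0000g00430) rose in the heterografts by 1.92, 1.98 and 2.23 in the same order of rootstocks and fell by 2.04 in CS/CS.

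Across the 15 group means of log2(TPM + 1), MYC1 and MYCA1 went together (Pearson r = 0.74, Spearman rho = 0.76), MYC1 and WDR1 less so (0.46 and 0.30), and MYCA1 and WDR1 showed no common course (-0.00027 and 0.10). These points share the stages and the scaling of TPM, and so the values describe the groups only. Of the 8 loci, MYC1 was most opposite to those listed as LDOX (r = -0.90) and 4CLL5 (-0.83) and most like that listed as 4CLL2 (0.70). With the loci so listed, MYCA1 was at -0.70 with F3H, -0.69 with LDOX, -0.69 with 4CLL5 and 0.58 with 4CLL2. WDR1 was nearest to the loci listed as 4CL1 (0.66) and CHS (0.55). All 3 members had a negative r with the loci listed as LDOX, 4CLL5, CHI, F3H, PAL1 and BHLH77. For WDR1 with PAL1 it was only -0.014.

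Among the other 20157 transcripts with enough counts, the 2 whose group means were most like those of MYC1 were VIT_02s0025g03420 (r = 0.95, rho = 0.90) and VIT_07s0104g01370 (0.95 and 0.88). Those most like MYCA1 were VIT_12s0035g00030 (0.98 and 0.93) and VIT_06s0004g03490 (0.97 and 0.98), both highest in CS at DAF75, with 12.2 and 154 TPM. Those most like WDR1 were VIT_11s0016g05190 (0.89 and 0.83) and VIT_15s0048g01420 (0.88 and 0.85). No gene name is paired with these identifiers in the sources used here. An r above 0.9 was reached by 190 transcripts with MYC1, by 162 with MYCA1 and by 0 with WDR1.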

How the data were processed

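Berry-skin RNA-seq of 15 groups of 3 biological replicates was used, with each column assigned from the sample titles and the note on library letters in the supplement. In the titles the self-grafted vines are Crimson and the graft-free ones Crimson Seedless, and only that note tells them apart. The skin label was not checked, since no marker with an identifier of the tables was given. The authors used fastp to filter reads, HISAT2 with the 12X genome for alignment, then StringTie and HTSeq for assembly and counting, in versions not given in the sources used here. The deposited estimated counts are not normalized. Of the counts above 0, 87.6% are whole, as are all but 1 of the members' 135 values. TPM values, as deposited, had been scaled by the authors with a tool not given in the sources used here.

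Counts were rounded and tested by edgeR 4.0.16 (R 4.3.3) with TMM and the quasi-likelihood test on transcripts that had 10 or more counts in 3 or more of the compared libraries, with no replicate block. The method was tested on simulated data with 17728 to 18759 transcripts. Of 100 changes planted at log2 1, it called 79 to 90 without an interaction and 41 in an interaction. Of 100 planted at log2 0.5, it called 20 to 27 and 0. False calls numbered 5 to 11 without an interaction and 0 in an interaction. In most comparisons of the data far more transcripts changed, which alters the adjustment, so these rates need not hold there. A member not called may still differ. P-values were Benjamini-Hochberg adjusted over all transcripts tested. Alternatives were DESeq2 1.42.0, limma 3.58.1 on log2(TPM + 1) and log2(TPM + 0.1), RLE size factors, no filter, a mean of at least 1 TPM, the replicate number as a block, a joint fit of the 45 libraries, an absolute log2 fold change above 1, unadjusted p-values and leaving out replicates. Python 3.11.15 (numpy 2.4.6, pandas 2.3.3, matplotlib 3.10.9) gave the levels and plots. The genes named are the members, the 8 loci with pathway names and the BHLH77 locus of the study's primer table, and the 2 transcripts most like each member. Other flavonoid genes without an entry in the gene table are not named. The members and lists were chosen with earlier results of these data known.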

Additional observations from a re-analysis of the deposited data

Results flagged for a closer look

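The difference of a grafted type from CS changed between stages in 12 of the 24 interaction tests of the members, by edgeR's quasi-likelihood test with Benjamini-Hochberg adjustment over all transcripts. In the same comparisons, between 22.5% and 48.1% of all transcripts tested changed. Whether the members exceed these shares was not tested. All values are on the log2 scale, as the difference from CS at the later stage minus that at the earlier one, and the 4 grafted types share the same CS libraries. For MYCA1 the term of DAF75 against DAF45 was -1.28 ± 0.20 (SE) in CS/101-14 (adjusted p = 0.000669), -2.31 ± 0.16 in CS/110R (1.92e-06) and -1.20 ± 0.28 in CS/SO4 (0.00649). For DAF105 against DAF75 it was 1.74 ± 0.15 for CS/101-14 (5.86e-06), 2.07 ± 0.15 for CS/110R (2.33e-06) and 1.58 ± 0.18 for CS/SO4 (3.84e-05). MYCA1 thus lay furthest below CS at DAF75 in these 3 types. In CS/CS its difference from CS was also largest at DAF75, at -0.90, -1.25 and -0.39 in order of stage, although its interaction terms did not pass.

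For WDR1 the term of DAF75 against DAF45 was 0.48 ± 0.16 in CS/101-14 (0.0365) and 0.73 ± 0.17 in CS/110R (0.00489), and that of DAF105 against DAF75 was -0.48 ± 0.14 in CS/110R (0.0158) and -0.49 ± 0.14 in CS/SO4 (0.0149). None of these 4 passed on the log2(TPM + 1) scale, where the adjusted p lay between 0.117 and 0.429. The term of CS/101-14 also did not pass in 9 of the 12 fits that left out a library, all but those without CS at DAF45 replicate 2, CS/101-14 at DAF45 replicate 1 and CS/101-14 at DAF75 replicate 1, with a range of 0.33 to 0.58, and without a filter on low counts (adjusted p = 0.0552).

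For MYC1 the term of DAF105 against DAF75 was 0.57 ± 0.18 in CS/101-14 (0.0213) and 0.45 ± 0.12 in CS/SO4 (0.01). In CS/101-14 it did not pass without CS at DAF105 replicate 2 (adjusted p = 0.0630), CS/101-14 at DAF75 replicate 1 (0.0548) or CS/101-14 at DAF105 replicate 1 or 2 (0.0634 and 0.0632), and in CS/SO4 it did not pass in 1 fit of all 45 libraries (0.0782).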

How the results depend on the processing

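Over the 123 member differences, 58 were called, where 0.161% to 69.7% of all transcripts changed, depending on the comparison. Many of these differences share libraries and are not independent. None of the 58 changed direction in 464 alternative fits or 483 fits without a library, 42 kept the call in all 8 alternative fits and 50 in every fit without a library. Among the differences not called, the sign turned in 39 of 520 alternative fits and in 38 of 534 fits without a library, and 26 and 16 fits gave a call. Limma on log2(TPM + 1), on which the median of all transcripts moved by up to 0.35 (0.43 with a pseudocount of 0.1), lost 12 calls and gained 8. DESeq2 lost 0 and gained 3, RLE size factors changed none, and the fit of all 45 libraries lost 4 and gained 7. The cause was not tested.

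Against CS at DAF45, the count of 1 member call became 2 with DESeq2, 2 with either TPM scale, 0 with an absolute log2 fold change above 1 and 3 at an unadjusted p under 0.05. Below, percentages give the share of all transcripts tested that passed both thresholds, over the comparisons of a set of 9 to 15 member tests. At DAF45 they were 0.144% to 18.2%. The fold threshold left 4 of 9 calls at DAF75 (15.9% to 27.9%) and 0 of 2 at DAF105 (2.11% to 16.5%). For the stages it left 2 of 5 (DAF75 against DAF45, 11.3% to 31.5%), 2 of 10 (DAF105 against DAF75, 9.93% to 33.6%) and 3 of 10 (DAF105 against DAF45, 32.1% to 40.7%). It left 1 of 3 for the heterografts against CS and CS/CS (3.66% to 29%) and 0 of 6 for CS/CS against the heterografts (15.5% to 34.3%). For the interactions it left 3 of 5 (11.7% to 26.4%) and 3 of 7 (14.1% to 24.5%). Either TPM scale gave 3 calls for DAF75 against DAF45 and 3 for the interaction of those stages. Leaving out 1 replicate number gave 0 to 2 calls against CS at DAF105, 3 in each case for DAF75 against DAF45, 3 to 4 for CS/CS against the heterografts and 2 to 5 for the interaction of DAF75 against DAF45. In these fits 2 libraries stand for a group of 3.

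The MYC1 difference between CS/110R and CS at DAF75 turned to 0.014 with DESeq2 and with RLE size factors, and ranged from -0.044 to 0.038 when a library was left out. The WDR1 difference between CS/CS and the heterografts at DAF75 turned to 0.0043 on log2(TPM + 1) and 0.0042 on log2(TPM + 0.1), with -0.26 to -0.03 when a library was left out.

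The replicate numbers of the labels were not tied to blocks. In 0 of 27 comparisons was every correlation of same-numbered libraries over 0.1, and in 3 of 27 every library correlated best with its own number. With the replicate block, 3 calls were lost and 1 gained: MYC1 in CS/CS against CS at DAF75 (0.29, adjusted p = 0.0658), MYCA1 for DAF75 against DAF45 in CS/CS (0.82, 0.0844), MYCA1 in CS/CS against the heterografts at DAF45 (-0.77, 0.0508), and as a gain MYCA1 in CS/CS against CS at DAF105 (-0.39, 0.0427). The members had 216 counts or more in every library, and 3 libraries a group limit these tests.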
